A study of Homo sapiens with 12 samples.

Results

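The genes described here are the subunits and assembly factors of the proteasome, taken as every gene with a probe set of its own whose symbol starts with PSMA, PSMB, PSMC, PSMD, PSME or PSMG, other than PSMB8 and PSMB9, pseudogenes and antisense RNAs. The rule found 44 genes of the 18404 named on the array, and the brightest probe set stands for each. PSMC5, PSMD7 and PSMD13 were not analysed here. The members PSMC3IP, a meiotic recombination factor, and PSME3IP1, a nuclear partner of the PSME3 activator, met the prefixes but are neither subunits nor assembly chaperones.

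RNA levels were read on 12 one-colour arrays that cover whole transcripts, hybridised with RNA of U-HO1 and L-1236, which are established lines of the CD30-positive tumour cells of Hodgkin lymphoma. Each line was transduced with an shRNA against the transcription factor GATA-3 (labelled siGATA-3) or with a non-functional control shRNA (labelled siSCR), with 3 arrays in each of the 4 groups. All groups carried a vector, were kept in culture for 3 days and were sorted for GFP, and each array used the RNA of 25000 GFP-positive cells after amplification. U-HO1 was grown in IMDM and L-1236 in RPMI 1640, so line and medium cannot be told apart in a difference between the lines. The 3 samples of each group are described as independent in the submitted design.

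The proteasome is the large protease that degrades proteins marked with ubiquitin. Its barrel-shaped core has outer rings of alpha subunits (PSMA genes), which gate the entrance, and inner rings of beta subunits (PSMB genes), of which PSMB5, PSMB6 and PSMB7 cut peptide bonds. A regulatory particle caps the core: its base holds a ring of ATPases (PSMC genes) that unfold substrates, and its lid holds the deubiquitinase PSMD14. Interferon induces a second set of catalytic subunits, PSMB8, PSMB9 and PSMB10, and the activator pair PSME1 and PSME2. Immunoproteasomes of this kind shape the peptides that lymphoid cells show on MHC class I.

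Promoters of 38 of the 44 genes were listed in RefSeq (GRCh38.p14) as 300 bases, from 250 before to 50 after an annotated start, and were searched on both strands for motifs. The core of the interferon-stimulated response element, searched as GAAA followed after any 2 bases by GAAA, occurred in 6 of these 38 genes (15.8%), against 4.38% of the 27305 genes in the promoter table. The genes were PSMA4, PSMB4, PSMB10, PSME1, PSME2 and PSMG4. In PSMB10, PSME1, PSME2 and PSMG4 the matched letters on the matching strand were identical, gaaagcgaaa, and these promoters are shown because 2 of the 4 genes passed the test between the lines and 2 did not. Capitals mark this core on either strand and, in PSME1 and PSME2, TGACNNNGC, the core of the antioxidant response element. The windows lie at chr14:24135944-24136243 (plus strand) for PSME1, chr14:24146561-24146860 (minus strand) for PSME2, chr16:67936801-67937100 (minus strand) for PSMB10 and chr6:3258697-3258996 (plus strand) for PSMG4, and each reads 5′ to 3′ along its gene.
PSME1: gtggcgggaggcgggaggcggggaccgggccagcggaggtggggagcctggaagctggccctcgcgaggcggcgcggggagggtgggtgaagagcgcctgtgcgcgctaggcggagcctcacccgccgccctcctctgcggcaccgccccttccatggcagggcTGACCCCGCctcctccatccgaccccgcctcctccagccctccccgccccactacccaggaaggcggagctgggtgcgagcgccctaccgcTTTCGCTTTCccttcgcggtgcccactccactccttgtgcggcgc
PSME2: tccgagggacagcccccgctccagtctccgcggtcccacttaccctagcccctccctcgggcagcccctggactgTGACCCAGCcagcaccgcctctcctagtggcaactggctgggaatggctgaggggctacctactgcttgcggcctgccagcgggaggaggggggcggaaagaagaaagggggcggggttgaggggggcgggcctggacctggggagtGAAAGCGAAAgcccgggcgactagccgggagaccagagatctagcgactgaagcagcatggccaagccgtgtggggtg
PSMB10: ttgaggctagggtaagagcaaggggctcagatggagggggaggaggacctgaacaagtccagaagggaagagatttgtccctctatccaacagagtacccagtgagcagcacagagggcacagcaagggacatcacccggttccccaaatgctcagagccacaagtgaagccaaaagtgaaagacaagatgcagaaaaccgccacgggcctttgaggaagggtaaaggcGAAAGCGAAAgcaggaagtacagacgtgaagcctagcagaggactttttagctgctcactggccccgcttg
PSMG4: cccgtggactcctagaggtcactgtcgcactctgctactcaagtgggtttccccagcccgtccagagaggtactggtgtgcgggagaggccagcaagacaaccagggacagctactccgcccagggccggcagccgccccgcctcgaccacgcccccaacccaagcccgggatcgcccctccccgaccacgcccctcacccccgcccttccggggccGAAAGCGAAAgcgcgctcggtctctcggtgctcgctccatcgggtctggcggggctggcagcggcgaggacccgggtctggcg
The TGACNNNGC letters occurred in 13 of the 38 genes (34.2%), against 16.1% of all genes in the table, and CCAAT in 19 (50%), against 39.7%. TGACNNNGC did not overlap the interferon core in the promoters printed. These are matches of letters, and binding was not measured.

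Values are given on the log2 scale as deposited, where a difference of 1 is a doubling. Array medians ran from 6.96 to 7.09, and over all 32321 probe sets the arrays correlated at 0.986 to 0.995 within a line and at 0.939 to 0.951 between the lines. Of 6 Hodgkin markers measured, TNFRSF8 (CD30), CCL17, IRF4 and FSCN1 were bright in both lines, while TRAF1 was at 6.75 to 7.23 in L-1236. The level of the remaining marker, FUT4, is not given here. Markers of B cells (3 of 4 measured), T cells (4 of 4) and monocytes (3 of 3) were at or below 7.41 on every array. GATA3 itself did not separate the labels: it was at 11.07, 10.12 and 10.22 on the siGATA-3 arrays of U-HO1, against 11.24, 10.90 and 10.24 on its siSCR arrays (difference -0.32, exact two-sided permutation p = 0.5). In L-1236 GATA3 was at 10.80, 10.00 and 10.24 on the siGATA-3 arrays, against 10.29, 10.69 and 9.95 on the siSCR arrays (difference 0.03, exact two-sided permutation p = 0.9). The smallest p that 3 arrays against 3 allow is 0.1. In both lines the array labelled siGATA-3 replicate 1 was the highest of its label and the array labelled siSCR replicate 3 was the lowest of its label, so every group below is named by its label only.

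Nearly all members were at least as bright as the middle probe set: 42 of the 44 had a mean level at or above 7.04, the median of all probe sets. The exceptions were PSMA8, the testis form of an alpha subunit, at 5.36 to 5.53 over the 12 arrays, and PSMB11, the catalytic subunit of the thymus, at 5.76 to 6.15. No detection call was used, and neither gene was shown to be above background. The median is no detection limit either. PSMG4 lay below the upper limit given above for markers of B cells, T cells and monocytes on all 12 arrays. PSMC3IP lay below it on the L-1236 arrays only. Since RNA was measured in bulk, fewer expressing cells and less RNA per cell cannot be told apart.

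Between the lines, the proteasome did not move as a block on the arrays labelled siSCR. In U-HO1, 10 of the 44 genes were higher and 5 were lower than in L-1236 at a limma adjusted p under 0.05. The higher genes included both subunits of the interferon-inducible activator, assembly chaperones and the alpha subunit PSMA6, and the lower genes lay in the core and in the regulatory particle. The 15 called members were 34.1% of the list, against 25.8% of all probe sets (13.3% higher and 12.5% lower) and 40.2% of those at or above the median level. With a fold of at least 1.5 as well, 6 members were higher and none was lower (13.6%), against 13.1% of all probe sets (7.15% higher) and 21.9% of the brighter ones. In 18 members (40.9%) the siSCR arrays of the lines did not overlap, against 34.7% of all probe sets and 47.8% of the brighter ones, so these shares did not exceed those of other bright probe sets. The median difference over the 44 genes was 0.03, with 25 positive, and under quantile normalization it was -0.05 with 15 positive. As deposited, all probe sets had a median of 0.0006 and 50.2% positive. The median of the brightest 25% of probe sets was 0.08 as deposited and -0.01 after quantile normalization. The split of calls also moved with the scaling, to 8 higher and 9 lower after quantile normalization and to 10 higher and 3 lower after centring on array medians. The 5 calls of lower genes came to 3 without U-HO1 siSCR replicate 2, L-1236 siSCR replicate 1 or L-1236 siSCR replicate 2. Of the 15 calls, 10 held without any single array, and PSMA1, PSMB7, PSMD5, PSMD12 and PSMD14 each lost theirs without at least 1.

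**Figure D1:**
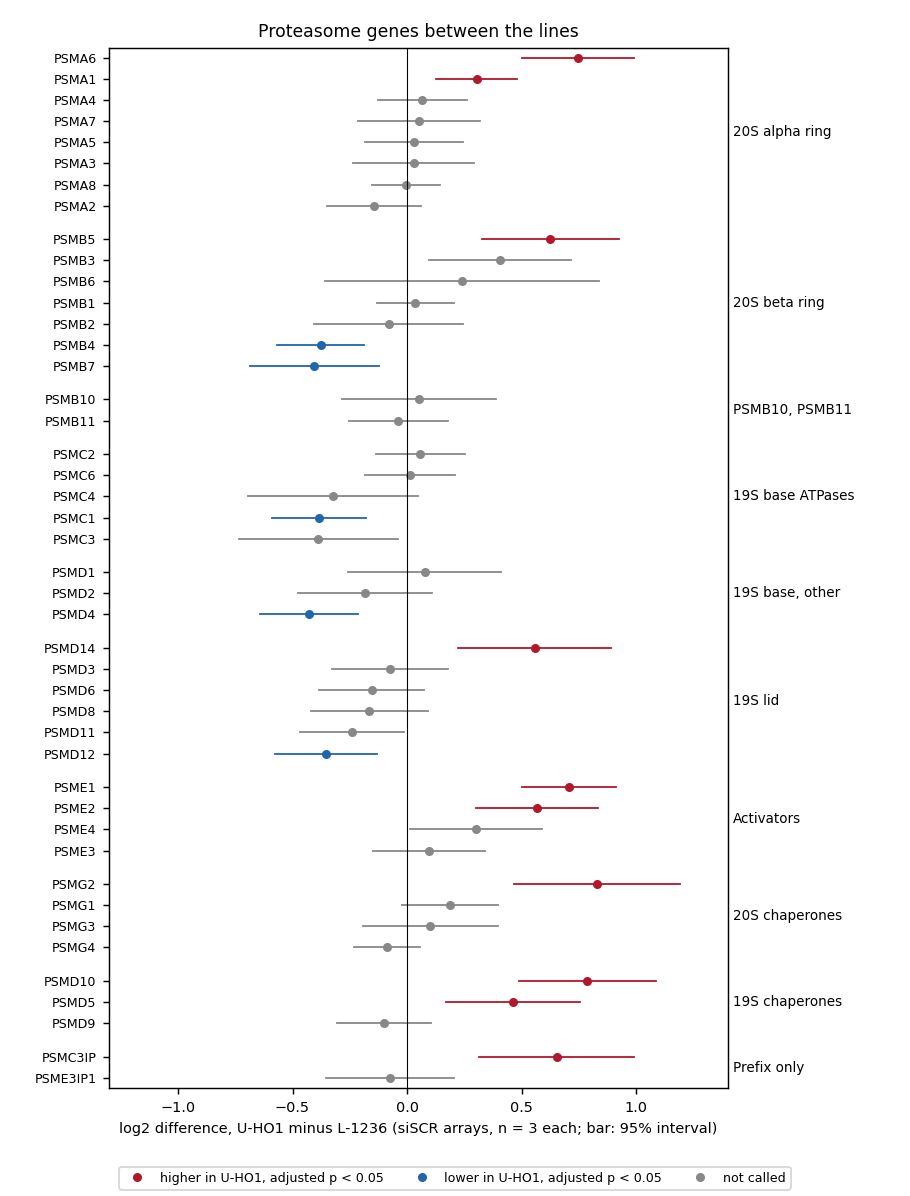
Difference between the lines for the 44 genes on arrays labelled siSCR (x axis: log2 level, U-HO1 minus L-1236; y axis: genes grouped by role; points: limma estimates from 3 arrays each; bars: 95% intervals). The 10 genes in red and the 5 in blue passed an adjusted p of 0.05; both signs occur in the beta ring and the lid, while no activator subunit had a negative difference as deposited.

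Of the 4 activator genes, 2 were higher, against 13.3% higher over all probe sets and 21.7% among the brighter ones. PSME1 and PSME2 together form the interferon-inducible cap that opens the core without ATP. PSME1 was at 10.74, 10.73 and 10.69 on the U-HO1 siSCR arrays, against 9.89, 10.04 and 10.13 on the L-1236 siSCR arrays. The groups lay well apart, and the difference was 0.70 (SE 0.09, 1.63-fold, adjusted p = 0.00014). PSME2 was at 11.10, 10.93 and 10.93 on the U-HO1 siSCR arrays, against 10.48, 10.24 and 10.53 on the L-1236 siSCR arrays. It was higher in U-HO1 by 0.57 (SE 0.12, adjusted p = 0.0043), again with no overlap, although its adjusted p was 0.0549 after quantile normalization. PSME3, the nuclear activator, differed by 0.09 (adjusted p = 0.64; -0.06 after quantile normalization) and PSME4, linked to acetylated histones and sperm development, by 0.30 (adjusted p = 0.13).

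The assembly chaperones were split. PSMG2, which with PSMG1 forms the heterodimer that starts the alpha ring, had the largest difference of the 44 genes. It was at 11.31, 11.15 and 11.27 on the U-HO1 siSCR arrays, against 10.08, 10.84 and 10.32 on the L-1236 siSCR arrays. Its difference was 0.83 (SE 0.17, 1.78-fold, adjusted p = 0.0026), and the L-1236 arrays spread widely. Its partner PSMG1 differed by 0.19 (adjusted p = 0.20), and PSMG3 and PSMG4, which form the other early chaperone pair, by 0.10 and -0.09 (adjusted p = 0.68 and 0.42). PSMD10 (gankyrin), which escorts the ATPase PSMC4 during assembly of the base and is also known as an oncoprotein, was at 10.67, 10.47 and 10.79 on the U-HO1 siSCR arrays, against 9.59, 10.01 and 9.96 on the L-1236 siSCR arrays. The difference of 0.79 (SE 0.14, 1.72-fold, adjusted p = 0.00105) came with no overlap. PSMD5, the escort of PSMC1 and PSMC2, was higher by 0.46 (SE 0.13, adjusted p = 0.022), and PSMD9, another base chaperone, differed by -0.10 (adjusted p = 0.53). The call of PSMD5 was lost without U-HO1 siSCR replicate 1 (adjusted p = 0.0739), U-HO1 siSCR replicate 3 (0.0864) or L-1236 siSCR replicate 1 (0.0898), and with only the arrays compared in the fit (0.0651). Over all 23 alternatives the call of PSMD5 was lost in 6, with an adjusted p of up to 0.184. L-1236 siSCR replicate 1 held the lowest level of PSMG2, of PSMD10 and of PSMD5 among the 12 arrays.

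In the alpha ring, 2 of 8 genes were higher and none was lower, against 13.3% higher and 12.5% lower over all probe sets and 21.7% and 18.5% among the brighter ones. PSMA6 was at 10.46, 10.16 and 10.23 on the U-HO1 siSCR arrays, against 9.64, 9.51 and 9.46 on the L-1236 siSCR arrays. It was higher by 0.74 (SE 0.11, 1.68-fold, adjusted p = 0.00036), the second smallest adjusted p of the members after PSME1. PSMA1 was higher by 0.30 (SE 0.08, adjusted p = 0.0147), a call lost without U-HO1 siSCR replicate 1 (adjusted p = 0.0673) or L-1236 siSCR replicate 3 (0.0557) and after quantile normalization (difference 0.14, adjusted p = 0.28). Over all 23 alternatives the call of PSMA1 was lost in 5. The other 6 alpha genes, which build the same ring in equal number apart from the testis form PSMA8, had differences of -0.15 to 0.07. After quantile normalization all 6 were negative, from -0.32 (PSMA2) to -0.03 (PSMA7).

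The beta ring moved in both directions, and so did its catalytic subunits. PSMB5, the chymotrypsin-like subunit and the main target of bortezomib, was at 10.49, 10.12 and 10.20 on the U-HO1 siSCR arrays, against 9.52, 9.97 and 9.44 on the L-1236 siSCR arrays. It was higher in U-HO1 by 0.63 (SE 0.14, 1.54-fold, adjusted p = 0.0046). The call of PSMB5 was lost in 1 of 23 alternatives (adjusted p = 0.0686), which was not the omission of a single array. PSMB7, the trypsin-like subunit, was at 10.40, 10.13 and 10.26 on the U-HO1 siSCR arrays, against 10.81, 10.65 and 10.55 on the L-1236 siSCR arrays. It was lower by 0.41 (log2 difference -0.41, SE 0.13, adjusted p = 0.036) without overlap. Its adjusted p ran up to 0.131 when single arrays were left out: 0.123 without U-HO1 siSCR replicate 2, 0.0809 without U-HO1 siSCR replicate 3, 0.131 without L-1236 siSCR replicate 1, 0.0673 without L-1236 siSCR replicate 2 and 0.0503 without U-HO1 siGATA-3 replicate 3. It was also past 0.05 after centring (adjusted p = 0.0768), with array weights (0.0882) and with the replicate block (0.0614). PSMB6, the caspase-like subunit, was at 10.39, 10.23 and 10.64 on the U-HO1 siSCR arrays, against 10.68, 9.43 and 10.43 on the L-1236 siSCR arrays. The groups overlapped, and its difference of 0.24 (SE 0.27, adjusted p = 0.62) became -0.14 without L-1236 siSCR replicate 2. PSMB4, a non-catalytic beta subunit, was at 10.42, 10.13 and 10.41 on the U-HO1 siSCR arrays, against 10.76, 10.59 and 10.74 on the L-1236 siSCR arrays. It was lower in U-HO1 (difference -0.38, SE 0.09, adjusted p = 0.0061), with every U-HO1 array below every L-1236 array. The call of PSMB4 was lost in 1 of 23 alternatives (adjusted p = 0.0569), again not the omission of a single array. PSMB1, PSMB2 and PSMB3, also non-catalytic, differed by 0.04, -0.08 and 0.41, and PSMB3 did not pass the test (adjusted p = 0.056).

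The regulatory particle carried the other lower genes. PSMC1, an ATPase of the base, was at 9.54, 9.33 and 9.54 on the U-HO1 siSCR arrays, against 9.96, 9.81 and 9.79 on the L-1236 siSCR arrays (difference -0.39, SE 0.09, adjusted p = 0.0088). Its groups did not overlap. The ATPases PSMC3 and PSMC4 had differences of -0.39 and -0.32 without passing (adjusted p = 0.10 and 0.21), and PSMC2 and PSMC6 stood at 0.06 and 0.01. PSMC6 had a second, dimmer probe set, whose difference was -0.01. Probe set numbers on this array run in chromosome order, and those of PSMC1 and of the brighter PSMC6 row fell among genes of chromosomes 3 and 8 (16 of the 16 nearest named probe sets in each case), although both genes lie on chromosome 14. The dimmer PSMC6 row fell among genes of chromosome 14, the other 42 members fell among genes of their own chromosome, and 1.63% of all named probe sets did not. Whether these rows read the genes themselves or copies elsewhere in the genome cannot be told apart, so the values of PSMC1 and PSMC6 are uncertain. PSMD4, the ubiquitin receptor of the base, was at 7.74, 7.82 and 7.71 on the U-HO1 siSCR arrays, against 8.40, 8.03 and 8.13 on the L-1236 siSCR arrays. It was lower by 0.43 (log2 difference -0.43, SE 0.10, adjusted p = 0.0060), and its neighbours in the base, the scaffold subunits PSMD1 and PSMD2, differed by 0.08 and -0.18 (adjusted p = 0.80 and 0.39).

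In the lid, PSMD14 was the exception in sign among the 6 genes measured. This deubiquitinase, which removes ubiquitin chains before a substrate enters the core, was at 9.41, 9.08 and 9.31 on the U-HO1 siSCR arrays, against 8.70, 8.88 and 8.55 on the L-1236 siSCR arrays. It was higher by 0.56 (SE 0.15, adjusted p = 0.0176), a call lost without U-HO1 siSCR replicate 1 (adjusted p = 0.0702), U-HO1 siSCR replicate 3 (0.0534) or L-1236 siSCR replicate 3 (0.0719). PSMD12, a scaffold subunit of the lid, was at 9.21, 8.96 and 9.14 on the U-HO1 siSCR arrays, against 9.58, 9.52 and 9.27 on the L-1236 siSCR arrays. It was lower by 0.35 (log2 difference -0.35, SE 0.10, adjusted p = 0.0216), and the call was lost without U-HO1 siSCR replicate 2 (adjusted p = 0.0843), L-1236 siSCR replicate 1 (0.0884) or L-1236 siSCR replicate 2 (0.0660), after centring (0.0547), with array weights (0.0662) and with only the arrays compared in the fit (0.0613). The lid subunits PSMD3, PSMD6, PSMD8 and PSMD11 had differences of -0.24 to -0.08. Outside the complex, PSMC3IP was at 8.05, 7.63 and 7.62 on the U-HO1 siSCR arrays, against 7.28, 7.26 and 6.80 on the L-1236 siSCR arrays (difference 0.65, SE 0.15, 1.57-fold, adjusted p = 0.0076), with no overlap, and PSME3IP1 differed by -0.08 (adjusted p = 0.76).

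**Figure D2:**
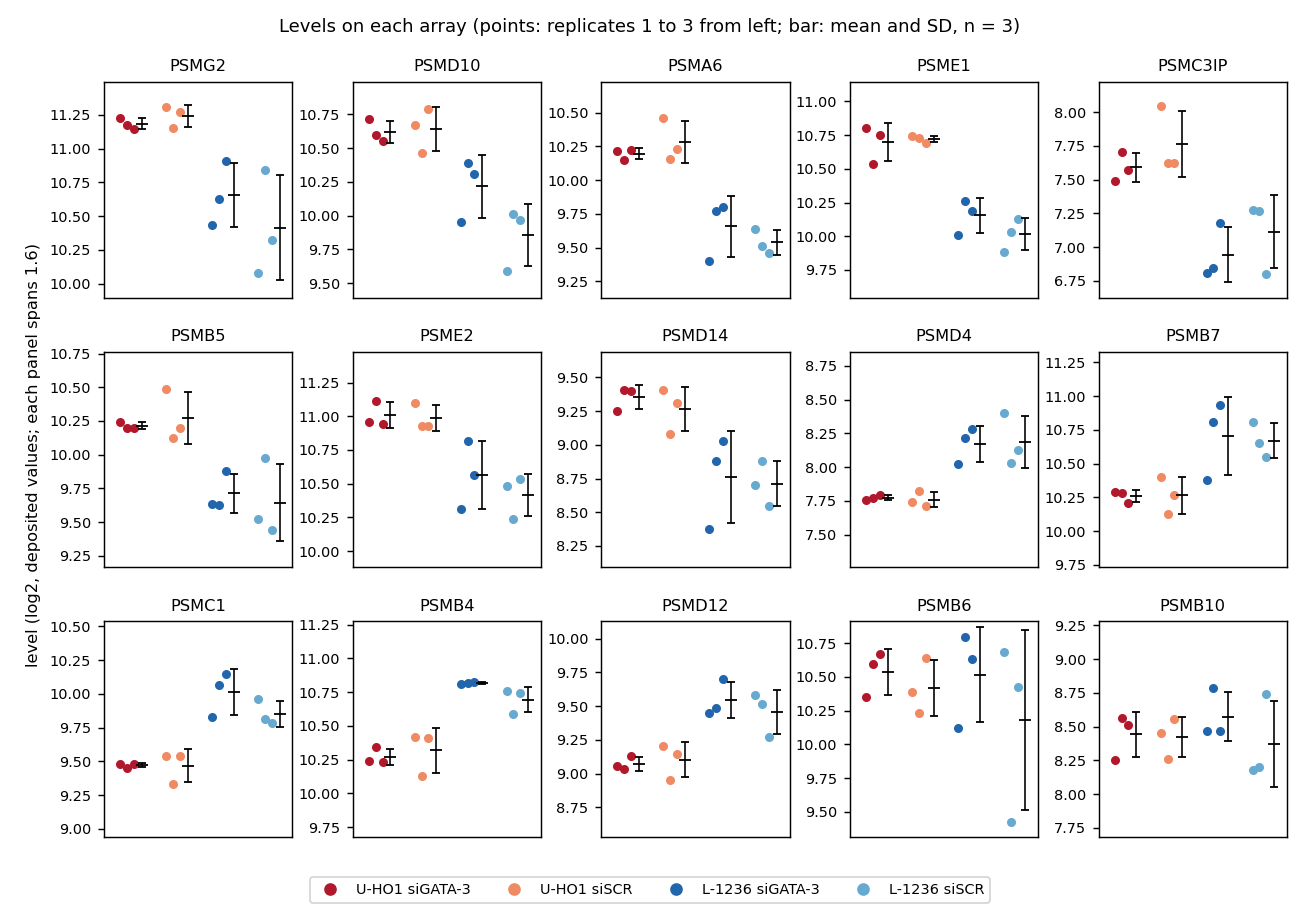
Deposited log2 level (y axis, each panel spanning the same range) of 15 proteasome genes on the 12 arrays, with a point per array and the mean and SD of each group of 3. PSME1, PSMA6 and PSMG2 show every U-HO1 array above every L-1236 array under both labels, PSMB4 and PSMC1 show the opposite, and PSMB6 and PSMB10 overlap.

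Averaged over both labels, with 6 arrays of each line, 11 members were higher and 11 lower in U-HO1, so that 50% were called, against 35.1% of all probe sets (18% higher and 17.1% lower) and 52.8% of the brighter ones. The siSCR arrays are part of this comparison, so it is no independent repeat. The median difference was -0.04, with 17 of 44 positive, against 0.02 and 55.1% positive over all probe sets. It was -0.09 with 14 positive after quantile normalization, -0.06 without L-1236 siGATA-3 replicate 1, -0.06 without L-1236 siSCR replicate 3 and -0.10 without the siGATA-3 replicate 1 and siSCR replicate 3 arrays of both lines. With a fold of at least 1.5, 5 members were higher (PSMG2, PSMC3IP, PSMA6, PSME1 and PSMD10) and none was lower (11.4%). The share was 13% over all probe sets (6.76% higher) and 21.6% among the brighter ones (11.3% higher). Of the 22 calls, 20 held without any single array, the exceptions being PSMB3 and PSMD8.

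The genes added by the larger comparison lay mostly in the regulatory particle. All 5 ATPases of the base had negative differences, and 3 passed as lower, against 17.1% of all probe sets and 25.5% of the brighter ones: PSMC1 (-0.46, SE 0.07, adjusted p = 0.00013), PSMC4 (-0.44, SE 0.12, adjusted p = 0.0121) and PSMC3 (-0.40, SE 0.11, adjusted p = 0.0152). PSMC2 and PSMC6 stood at -0.04 and -0.10, and the rows of PSMC1 and PSMC6 are the uncertain ones named above. PSMC4 ranged over 10.34, 10.43 and 10.81 (lowest, median and highest of 6 arrays) in U-HO1, against 10.59, 10.88 and 11.24 in L-1236, and PSMC3 over 8.53, 8.69 and 8.92 in U-HO1, against 8.78, 9.17 and 9.40 in L-1236. Both overlapped between the lines, whereas PSMC1 did not, at 9.33, 9.48 and 9.54 in U-HO1, against 9.79, 9.89 and 10.15 in L-1236. In the lid, PSMD6 (-0.30, adjusted p = 0.0063), PSMD11 (-0.28, adjusted p = 0.0109) and PSMD8 (-0.25, adjusted p = 0.036) joined PSMD12 (-0.41, adjusted p = 0.00058), and PSMD14 kept its opposite sign (0.57, adjusted p = 0.0011). The call of PSMD8 was lost without U-HO1 siGATA-3 replicate 2 (adjusted p = 0.0716), U-HO1 siGATA-3 replicate 3 (0.0775), U-HO1 siSCR replicate 2 (0.0820), U-HO1 siSCR replicate 3 (0.0567), L-1236 siGATA-3 replicate 3 (0.0777) or L-1236 siSCR replicate 2 (0.0814), with the replicate block (0.0591) and after centring (0.0623). In the core, PSMA2 was lower (-0.24, adjusted p = 0.0145) and PSMB3 was higher (0.31, adjusted p = 0.0318). The call of PSMB3 was lost without U-HO1 siGATA-3 replicate 1 (adjusted p = 0.0601), U-HO1 siGATA-3 replicate 2 (0.0667), U-HO1 siSCR replicate 1 (0.0792), L-1236 siGATA-3 replicate 1 (0.0721), L-1236 siSCR replicate 1 (0.0501) or L-1236 siSCR replicate 3 (0.0770), after centring (0.0503) and after quantile normalization (0.0744). Over all 22 alternatives the call of PSMB3 was lost in 10, with an adjusted p of up to 0.207. In 12 of the 44 genes (27.3%) no array of U-HO1 overlapped one of L-1236, against 23.3% of all probe sets and 36.4% of the brighter ones. Of these, 8 were higher in U-HO1 and 4 were lower (PSMB4, PSMC1, PSMD4 and PSMD12).

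The interferon-inducible genes of the proteasome did not share a direction between the lines. PSMB8 and PSMB9, which the rule leaves out of the list, were lower in U-HO1 on the siSCR arrays, PSMB8 by 0.90 (log2 difference -0.90, adjusted p = 0.00068) and PSMB9 by 0.96 (log2 difference -0.96, adjusted p = 0.0020), while their activator partners PSME1 and PSME2 were higher. PSMB10, the third inducible catalytic subunit, was at 8.45, 8.26 and 8.56 on the U-HO1 siSCR arrays, against 8.18, 8.20 and 8.74 on the L-1236 siSCR arrays. Its groups overlapped (difference 0.05, SE 0.15, adjusted p = 0.87), and its sign turned without L-1236 siSCR replicate 1 (-0.04), L-1236 siSCR replicate 2 (-0.03) or U-HO1 siSCR replicate 3 (-0.01). Under both labels PSMB10 ran from 8.25 to 8.57 in U-HO1, against 8.18 to 8.78 in L-1236. PSMG4, whose promoter holds the same letters, was at 7.28, 7.20 and 7.29 on the U-HO1 siSCR arrays, against 7.38, 7.33 and 7.31 on the L-1236 siSCR arrays. These groups did not overlap, but the difference of -0.09 did not pass (adjusted p = 0.42). On every array PSMG4 lay below the upper limit given above for markers of B cells, T cells and monocytes. The mean level of the inducible subunits PSMB8, PSMB9 and PSMB10 minus that of PSMB5, PSMB6 and PSMB7 was -1.67 to -1.58 on the 6 U-HO1 arrays, against -1.25 to -0.45 on the 6 L-1236 arrays. Only its change between arrays can be read, because probes differ in brightness.

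L-1236 arrays differed among themselves in interferon-response genes, and PSMB10 was high on some of the same arrays. The mean of 34 measured genes of a 38-gene interferon list was 8.35, 8.54 and 8.38 on the siGATA-3 arrays of U-HO1 and 8.53, 8.30 and 8.33 on its siSCR arrays. In L-1236 it was 9.15, 9.70 and 8.55 on the siGATA-3 arrays and 8.11, 7.96 and 9.88 on the siSCR arrays. PSMB10 in L-1236 was at 8.47, 8.78 and 8.47 on the siGATA-3 arrays, against 8.18, 8.20 and 8.74 on the siSCR arrays, so its highest levels were on the arrays with the highest interferon means. PSME1 in L-1236 was at 10.01, 10.26 and 10.19 on the siGATA-3 arrays, against 9.89, 10.04 and 10.13 on the siSCR arrays, and every one of these lay below the lowest U-HO1 array (10.54). PSME2 in L-1236 was at 10.31, 10.82 and 10.56 on the siGATA-3 arrays, against 10.48, 10.24 and 10.53 on the siSCR arrays, all below the lowest U-HO1 level of 10.93. The part of the interferon-response genes in these levels was not tested.

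**Figure D3:**
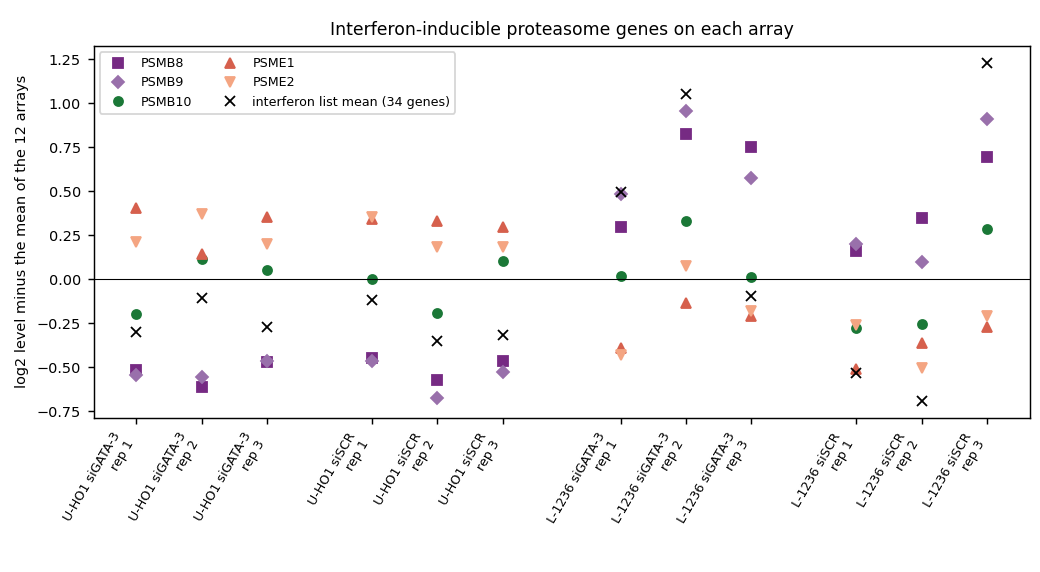
Interferon-inducible proteasome genes and the mean of 34 interferon-response genes on each of the 12 arrays (y axis: log2 level minus the mean of all 12 arrays; x axis: arrays by group). PSME1 and PSME2 lie above 0 on all 6 U-HO1 arrays, PSMB8 and PSMB9 lie above 0 on all 6 L-1236 arrays, and the interferon mean is widest apart among L-1236 arrays.

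Other genes of the pathway were read from lists of related function, whose counts stand against 13.3% higher and 12.5% lower over all probe sets. Among 10 proteasome genes with other symbols, 3 were higher and 1 was lower in U-HO1 on the siSCR arrays: the proteasome deubiquitinase UCHL5 (0.74, adjusted p = 0.0071), the small lid subunit SEM1 (0.45, adjusted p = 0.0017) and the base-binding factor PAAF1 (0.26, adjusted p = 0.0165) were higher. POMP, the maturation factor of the core, was lower (-0.50, adjusted p = 0.0042), at 10.62, 10.40 and 10.32 on the U-HO1 siSCR arrays, against 10.85, 11.14 and 10.84 on the L-1236 siSCR arrays. Of 8 measured genes (10 listed) that control proteasome genes or their products, 2 were higher and 3 lower. AKIRIN2, which carries proteasomes into the nucleus, was at 10.50, 10.20 and 10.33 on the U-HO1 siSCR arrays, against 9.17, 9.18 and 9.07 on the L-1236 siSCR arrays (1.20, 2.30-fold, adjusted p = 2.6e-06). NFE2L2, which raises proteasome genes under oxidative stress, was higher by 0.60 (adjusted p = 0.00057), and its competitor BACH1 was lower (-0.76, adjusted p = 0.00064). NFE2L1, the factor that raises proteasome genes when the proteasome is inhibited, was lower (-0.44, adjusted p = 0.034), as was NGLY1, the enzyme that removes its sugar chains (-0.37, adjusted p = 0.0125). In the list of 14 ubiquitin, activating-enzyme and delivery genes, of which 10 were measured, the shuttle UBQLN1 was higher (0.40, adjusted p = 0.0138). UFD1 (-0.50, adjusted p = 0.0088) and the segregase VCP it works with (-0.38, adjusted p = 0.042) were lower, as was the activating enzyme UBA6 (-0.43, adjusted p = 0.030).

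Within the lines, no member was called between the labels. By the submitters' criteria (false discovery rate up to 25% and a fold of at least 1.5), 0 of 44 members were called in L-1236 and 0 in U-HO1, against 0% of all 32321 probe sets in each line, and the same held at an adjusted p of 0.05. At an unadjusted limma p under 0.05, 4 members (PSMB1, PSMD10, PSMC2 and PSMD6) were higher and none was lower in L-1236 (over all probe sets, 1.4% were higher and 3.37% lower). In U-HO1 no member passed that level, against 1.05% of all probe sets. GATA3 did not separate the labels in either line, which bears on each direction below.

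In L-1236, 39 of the 44 genes (88.6%) had a positive difference, siGATA-3 minus siSCR, with a median of 0.12. Positive differences were found in 46.7% of all probe sets and in 61.4% of the brighter ones, with medians of -0.01 and 0.04, and the median of the brightest 25% of probe sets was 0.10. After quantile normalization the members' median was 0.03 with 30 positive (brightest 25% of probe sets 0.02), and after centring on array medians it was 0.18 with 43 positive. Without L-1236 siGATA-3 replicate 3 the median was 0.04 with 31 positive, without L-1236 siSCR replicate 3 it was 0.05 with 29 positive, and without L-1236 siGATA-3 replicate 1 it was 0.21 with 41 positive. Members with the smallest p were PSMB1, PSMD10 and PSMC2. PSMB1, a non-catalytic beta subunit, was at 8.97, 9.07 and 9.22 on the siGATA-3 arrays, against 8.96, 8.79 and 8.87 on the siSCR arrays (difference 0.21, SE 0.08, adjusted p = 0.93). The siGATA-3 arrays were all above the siSCR arrays, narrowly. PSMD10 was at 9.95, 10.39 and 10.31 on the siGATA-3 arrays, against 9.59, 10.01 and 9.96 on the siSCR arrays (difference 0.36, SE 0.14, adjusted p = 0.93), and these groups overlapped. PSMC2 was at 10.56, 10.72 and 10.75 on the siGATA-3 arrays, against 10.55, 10.47 and 10.37 on the siSCR arrays (difference 0.22, SE 0.09, adjusted p = 0.93). None of the 3 passed the test over all probe sets. On the negative side PSMC3IP was at 6.81, 6.84 and 7.18 on the siGATA-3 arrays, against 7.28, 7.26 and 6.80 on the siSCR arrays (difference -0.17). PSMG4 was at 7.21, 7.36 and 7.30 on the siGATA-3 arrays, against 7.38, 7.33 and 7.31 on the siSCR arrays (difference -0.06, and 0.0078 after centring). PSMB11 was at 6.06, 5.99 and 5.87 on the siGATA-3 arrays, against 6.15, 5.97 and 5.93 on the siSCR arrays (difference -0.04, 0.0024 after quantile normalization and 0.018 after centring). The labels overlapped in each of these. The labels did not overlap in 3 members, PSMB1, PSMB4 and PSMC2, all higher (6.82%), against 10.7% of all probe sets either way and 3.24% with siGATA-3 higher.

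In U-HO1, 16 of the 44 genes (36.4%) had a positive difference between the labels, with a median of -0.02, against 49% and a median of -0.002 over all probe sets. The count moved to 29 without U-HO1 siSCR replicate 1 and to 6 without U-HO1 siSCR replicate 2, where the median was 0.02 and -0.08, and to 10 with array weights. PSMD14 was at 9.25, 9.41 and 9.40 on the siGATA-3 arrays, against 9.41, 9.08 and 9.31 on the siSCR arrays (difference 0.09, SE 0.15). PSMG4 was at 7.30, 7.37 and 7.27 on the siGATA-3 arrays, against 7.28, 7.20 and 7.29 on the siSCR arrays (difference 0.06), and the lid subunit PSMD11 differed by 0.04. The labels overlapped in each of these 3 genes. PSMC3IP was at 7.49, 7.71 and 7.57 on the siGATA-3 arrays, against 8.05, 7.63 and 7.62 on the siSCR arrays (difference -0.18). PSMA3 was at 10.06, 9.68 and 9.97 on the siGATA-3 arrays, against 10.18, 10.04 and 9.88 on the siSCR arrays (difference -0.13). None of these passed, nor did PSMA5, with a difference of -0.10. PSMG3 was the only member whose labels did not overlap, at 10.06, 10.05 and 10.00 on the siGATA-3 arrays, against 10.16, 10.14 and 10.17 on the siSCR arrays, a share of 2.27% against 3.79% of all probe sets. The difference of the label effects, U-HO1 minus L-1236, was tested directly and called none of the 44 (0% of all probe sets). Its median over the members was -0.16, with 5 positive (11.4%), against 51% of all probe sets and 38.6% of the brighter ones, and the median of the brightest 25% of probe sets was -0.10. After quantile normalization the members' median was -0.05 with 8 positive, and after centring on array medians it was -0.23 with 1 positive. It was -0.23 with 2 positive without L-1236 siGATA-3 replicate 1, -0.09 with 10 positive without L-1236 siGATA-3 replicate 3, -0.10 with 10 positive without L-1236 siSCR replicate 3 and -0.10 with 9 positive without U-HO1 siSCR replicate 1, and without L-1236 siSCR replicate 1 the count was 2. At an unadjusted p under 0.05 no member and 2.46% of all probe sets passed.

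**Figure D4:**
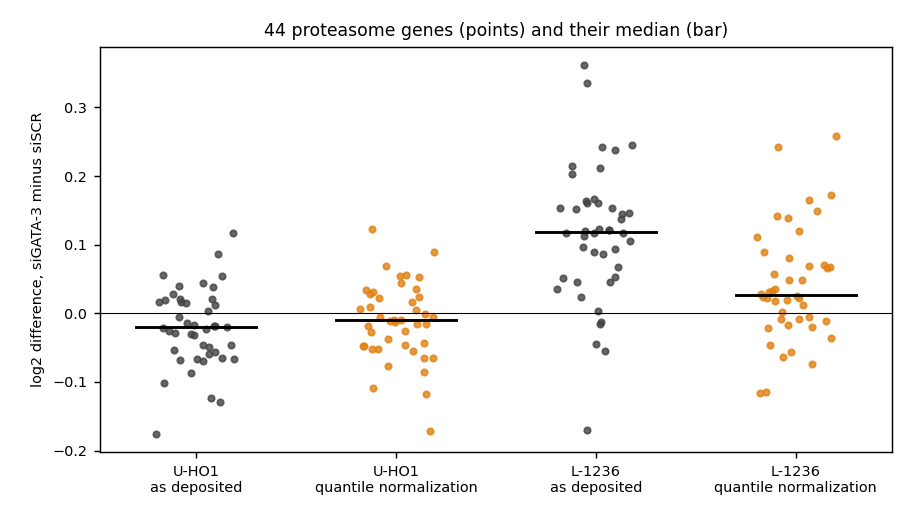
Differences between the labels for the 44 genes (y axis: log2 level, siGATA-3 minus siSCR; x axis: line and scaling; points: genes; bars: medians). The L-1236 median is 0.12 as deposited and 0.03 after quantile normalization, and the U-HO1 medians are -0.02 and -0.01.

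Single arrays stood apart for the whole set of genes. The array labelled siGATA-3 replicate 3 of L-1236 was the highest of its line for 30 of the 44 members, and the members lay on average 0.19 above the mean of their line there. The brightest 25% of all probe sets lay 0.13 above on the same array, and its standard deviation over probe sets (1.72) was the highest of the 12. L-1236 siSCR replicate 3 was the lowest of its line for 21 members, with a mean deviation of -0.14, and the brightest 25% of probe sets were at -0.02 there. In U-HO1, siSCR replicate 1 was the highest for 25 members (mean deviation 0.11, brightest 25% of probe sets 0.02) and siSCR replicate 2 the lowest for 24 (mean deviation -0.09, brightest 25% of probe sets -0.09). The part of the spread of whole arrays in the label differences was not tested beyond the scalings and left-out arrays given above.

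**Figure D5:**
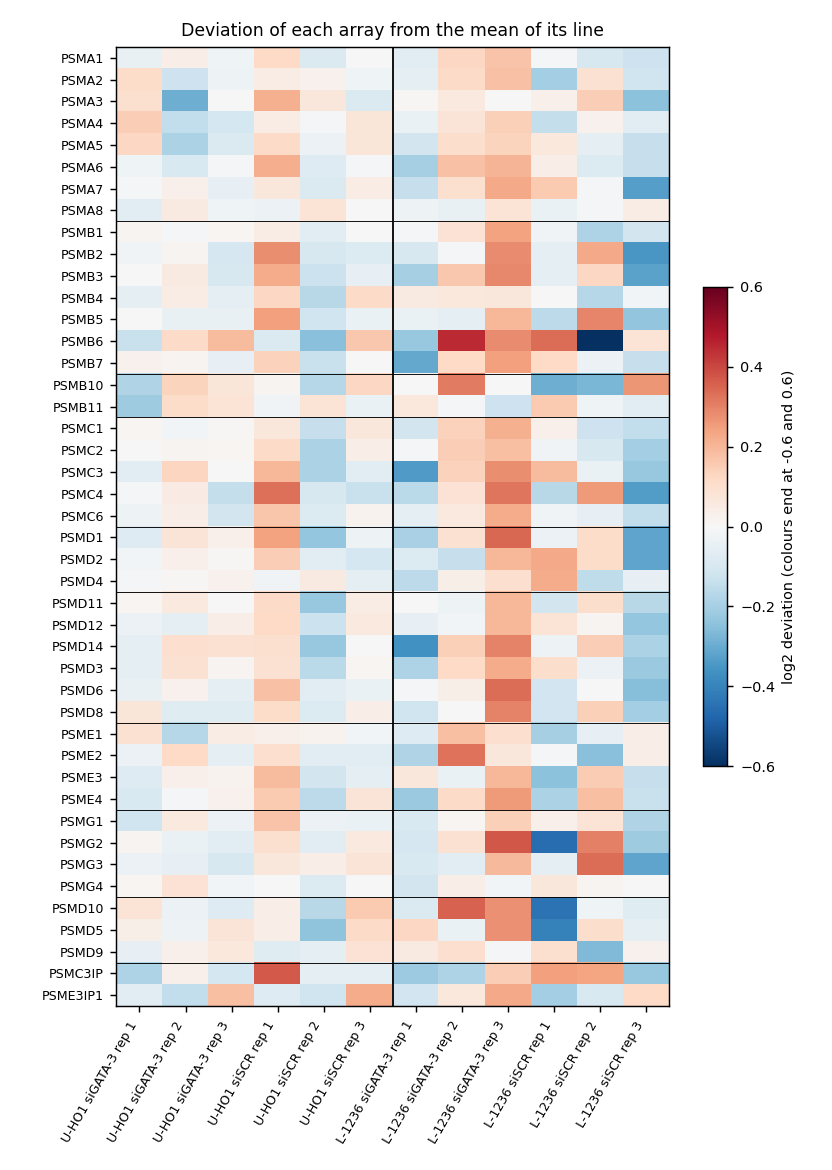
Deviation of each proteasome gene on each array from the mean of the 6 arrays of its line (colour: log2 deviation, with the colours ending at -0.6 and 0.6; rows: genes by role; columns: arrays). L-1236 siGATA-3 replicate 3 is red for most genes and L-1236 siSCR replicate 3 is blue for most, and the darkest blue is PSMB6 on L-1236 siSCR replicate 2.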

How the data were processed

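Gene expression was measured on 12 one-colour whole-transcript arrays. The table deposited by the authors holds log2 values per probe set, with the log base read from the values (3.86 to 13.99). The normalization is not given in the sources used here. R 2.8.1 is listed per the submitters' processing notes. Scanner files were not analysed here, so precision rests on the number of arrays (3 per group). Probe sets were named through the platform annotation: 19158 of 32321 had a single gene symbol, 1388 had several and 11775 had none.

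limma 3.58.1 in R 4.3.3 fitted a mean for each of the 4 groups (8 residual degrees of freedom) to all probe sets, with Benjamini-Hochberg adjustment over all of them, for 5 comparisons. The procedure was tested on simulated data. Values per array were given for the members called between the lines on siSCR arrays, at most 8 with the largest difference each way (8 higher and 5 lower), for PSMB5, PSMB6, PSMB7, PSMB10, PSME1 and PSME2, and for members with the smallest p between labels; PSMG3, PSMG4, POMP, AKIRIN2 and the PSMC3 and PSMC4 ranges were added after their values were seen. Alternatives were the replicate block, quantile normalization, centring, a filter on dim probe sets, the choice of probe set, the arrays fitted, the variance prior, array weights, the threshold and leaving out each array. The members, lists and tests were chosen with earlier results of these data known. The limma p-values rest on the spread between samples within groups, pooled over the 4 groups. They do not cover variation among Hodgkin lines other than these.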

Additional observations from a re-analysis of the deposited data

How the results depend on the processing

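Between the lines on siSCR arrays, 10 genes higher became 7 to 12 and 5 lower became 3 to 6 when single arrays were left out; the lower count was 9 after quantile normalization and 3 with centring, with array weights or at an adjusted p of 0.01. Over both labels, 11 higher became 10 to 12 and 11 lower became 10 to 12 when single arrays were left out, and 6 were lower at an adjusted p of 0.01. The counts of 0 between the labels and for their difference were 0 in every alternative run. Among the genes followed by name, signs turned as follows: PSMB11 in L-1236 between labels (0.0024 after quantile normalization, 0.018 centred, -0.088 to 0.022 without single arrays), PSMG4 in L-1236 (0.0078 centred), PSMD11 in U-HO1 (-0.014 with array weights, -0.058 to 0.11), PSMD14 in U-HO1 (-0.0053 to 0.16), PSMB6 between the lines (-0.14 to 0.49 on siSCR arrays, -0.057 to 0.26 over both labels) and PSMB10 (-0.0068 with array weights and -0.044 to 0.24 on siSCR arrays, -0.087 to 0.053 over both labels). Other members with small differences also turned sign after quantile normalization, such as PSMC2 (-0.077), PSMD1 (-0.043) and PSMG3 (-0.019) between the lines on siSCR arrays and PSMA3 (-0.056) and PSMB5 (-0.021) between the labels in L-1236. GATA3 differed by -0.62 to -0.10 in U-HO1 and by -0.19 to 0.22 in L-1236 without single arrays. The causes were not tested.

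Leaving out the arrays labelled siGATA-3 replicate 1 and siSCR replicate 3 of both lines, a choice made after seeing the data, gave 7 higher and 4 lower on siSCR arrays and 8 higher and 11 lower over both labels, with PSMB10 at 0.041 over both labels and no call between the labels.

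Between the labels, and between the siSCR arrays of the lines, no consistent pairing by replicate number was seen. Same-numbered arrays correlated in their deviations at -0.17 to 0.32 between the labels in U-HO1, -0.40 to 0.17 in L-1236 and -0.17 to 0.26 between the siSCR arrays of the lines. In these comparisons 3, 1 and 2 of 6 arrays were closest to their own number. With 3 arrays per group, whether the samples were paired cannot be told. The siGATA-3 arrays of the lines had every pair above 0.1 (0.14 to 0.21), with 6 of 6 arrays closest to their own number. With the replicate block the siSCR comparison gave 10 higher and 4 lower (PSMB7 at adjusted p = 0.0614), the mean over both labels 11 higher and 10 lower (PSMD8 at adjusted p = 0.0591), and the label comparisons 0.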

Other observations

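Genes next to the members on their chromosomes also differed between the lines, and their counts stand against 13.3% higher and 12.5% lower over all probe sets. By gene order in RefSeq (GRCh38.p14), up to 10 measured genes on each side of a member were compared on the siSCR arrays, other members left out. PSMB5, PSME1, PSME2 and PSMA6, which were all higher in U-HO1, lie on chromosome 14, whose 587 placed genes had a median difference of 0.05, and so does PSMC1, which was lower by its uncertain probe set. The 20 neighbours of PSMA6 had a median of 0.42, U-HO1 minus L-1236, and 10 were higher and 0 lower at an adjusted p under 0.05. PSMC6, on the same chromosome and read by an uncertain probe set, differed by 0.01 beside 20 neighbours with a median of 0.44, of which 10 were higher and 2 lower. PSMD4 and PSMB4, both lower in U-HO1, lie close together on chromosome 1 and share most of their neighbours, of which 7 of 19 were lower and 1 was higher around each. PSMA2 on chromosome 7 differed by -0.15 beside neighbours with a median of -0.50, of which 12 of 20 were lower and 1 higher. Over the 10 members higher in U-HO1 the neighbours' medians ran from 0.01 to 0.42, over the 5 lower members from -0.16 to 0.03 (the upper end being that of PSMC1), and over the other 29 from -0.50 to 0.44. Copy number was not measured, and its part in these differences was not tested.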
